A study of Mus musculus with 2 samples.

Results

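The genes described here encode the cytosolic ribosomal proteins, the structural proteins of the ribosome outside mitochondria. They were chosen by symbol alone, as Rpl or Rps followed by a number with an optional paralog letter, Rplp0 to Rplp2 and Rpsa, without the kinases named Rps6k and without pseudogene (-ps) rows. This rule found 84 of the 27998 genes in the list, of which 32 belong to the small subunit and 52 to the large subunit. The gene Fau, which encodes a ubiquitin-like protein joined to a ribosomal protein, falls outside the rule.

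The samples were 2 scRNAseq libraries of live CD45+ cells sorted from subcutaneous B16 melanoma tumors. All mice carried a human LAIR1 transgene expressed in hematopoietic cells through Vav-cre (VAVcre+/-hLAIR1+/-) on an mLAIR1-/- C57BL/6 background and were 6 to 8 weeks old. One library came from mice given the antagonist anti-LAIR1 antibody h219-LLG, a humanized IgG1 with a mutated Fc, and the other from mice given the control antibody. Either antibody was given at 10 mg/kg in 3 doses, every 4 days from day 5 after tumor injection, and the experiment ended at day 16. Each treatment was 1 library, how many mice were pooled is not stated in those sources, and no p-value can be computed. Intervals below cover counting error only. The transgene is not a row of the gene list, so LAIR1 itself was not checked.

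The h219-LLG library held 48834592 UMIs (unique molecular identifiers, 1 per captured transcript) in 8807 barcodes, and the control library held 40339654 UMIs in 6133 barcodes. After filtering, 7433 and 5607 cells were kept, at a median of 5050 and 5796 UMIs. Barcodes at or above 10% mitochondrial UMIs made up 15.2% of the h219-LLG library and 8.17% of the control library, and 13 barcodes occurred in both. Marker gates named 58.3% and 58.6% of the kept cells. In the 12 gates with at least 20 cells in each library, 59 of 60 check markers were higher in the gate than in the other kept cells in both libraries. The exception was Prf1 in CD8 effector T-like cells. The gamma-delta T cell gate could not be applied, because its gating gene was not a row of the gene list used here.

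Ribosomal protein genes are among the most abundant messengers of a growing cell. Their mRNAs are known as TOP mRNAs, since they begin with a cytosine and a run of pyrimidines (C or T) at the cap, and mTOR signaling through LARP1 controls their translation and stability as one group. Immune cells differ in how much of their mRNA these genes take. Most members have a single functional copy, and a few have a paralog with a restricted pattern.

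To show what this start looks like, 30 bases around the annotated start of 10 genes described below are given, 15 before and 15 from the start onward. The sequences are from RefSeq on GRCm38.p6 (mm10), 5′ to 3′ on the strand of the gene. Capitals mark the longest run within 10 bases of the start that begins with C and holds only C and T, if it has 5 bases or more.
Rpl35: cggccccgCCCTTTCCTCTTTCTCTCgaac
Rpl15: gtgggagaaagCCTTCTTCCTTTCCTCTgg
Rpl27: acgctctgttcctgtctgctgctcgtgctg
Rps27: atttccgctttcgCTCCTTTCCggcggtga
Rps27l: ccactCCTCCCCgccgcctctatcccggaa
Rpl22l1: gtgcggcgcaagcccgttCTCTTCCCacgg
Rps9: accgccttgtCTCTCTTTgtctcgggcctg
Rpl12: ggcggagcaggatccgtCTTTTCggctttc
Rpl31: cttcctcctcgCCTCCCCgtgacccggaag
Rpl10: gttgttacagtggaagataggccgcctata
The run was 18 bases long at Rpl35 (GRCm38 chr2:39005117-39005146, minus strand) and 17 bases at Rpl15 (chr14:18270972-18271001, minus strand). No such run was marked at Rpl27 (chr11:101442230-101442259, plus strand) or Rpl10 (chrX:74270801-74270830, plus strand). Of the 84 members, 64 had an entry in this table. The window and the length of the run were tried in 10 combinations after the data had been seen, and the share holding the run depended on them. With the start base itself and a run of 8, it was 15.6% of the members and 0.936% of all 27025 genes with an entry. Within 25 bases and with a run of 5, it was 84.4% and 59.3%. The share was higher in the members in each of the 10 combinations. These matches describe the letters around an annotated start and not a measured cap site. Of the 10 genes, only Rps27l has this start at the boundary of its gene coordinates, which are from another annotation. For Rps27, Rpl31 and Rpl10 they lie within a few bases, and for the others further apart. The Rpl27 window ends before the gene start at chr11:101442298, so the missing run there may reflect the start used. The Rpl12 window (chr2:32961697-32961726) lies past the gene start at chr2:32961559, so the run marked there may reflect it too.

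The share of a cell's UMIs that came from the 84 genes followed the cell type. It was highest in naive T cells and lowest in neutrophils, and this order was alike in both libraries. CD8 naive T-like cells gave 41.8% of their UMIs to the members in the h219-LLG library and 41.2% in the control library, from 1263 and 754 cells. CD4 naive T-like cells followed with 40.5% and 39.6%. B-like cells had 32.0% and 30.4%, from 1755 and 1374 cells.

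Activated and effector lymphocytes lay below the naive cells of their own lineage. CD4 activated T-like cells had 31.3% in the h219-LLG library and 32.4% in the control library. CD8 effector T-like cells had 28.6% and 30.9%, from 41 and 20 cells, and Treg-like cells had 26.6% and 25.4%. NK-like cells had 23.1% and 24.6%. The CD8 naive share was thus 1.46 times the CD8 effector share in the h219-LLG library and 1.33 times in the control library.

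Most myeloid gates lay below the lymphocyte gates. The exceptions were the small gates of type 1 conventional dendritic-like cells, with 24.6% in the h219-LLG library and 25.2% in the control library, and of type 2 conventional dendritic-like cells, with 24.3% and 22.2%, which were near the NK-like cells. Plasmacytoid dendritic-like cells had 22.3% and 21.0%. Classical monocyte-like cells had 18.2% in the h219-LLG library and 19.3% in the control library. The C1q macrophage-like cells had 17.2% and 18.8%, the Spp1/Arg1 macrophage-like cells 18.1% and 16.6%, and the patrolling monocyte-like cells 17.0% and 18.1%. In neutrophil-like cells the share was 4.28% in 45 cells of the h219-LLG library and 3.91% in 19 cells of the control library, so that CD8 naive T-like cells stood 9.76-fold and 10.5-fold higher.

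Depth did not follow the same order as the share. Classical monocyte-like cells held a median of 9354 and 13210 UMIs per cell, against 6017 and 7408 in CD8 naive T-like cells. In UMIs of the members per cell, the medians were 1769 and 2468 in classical monocyte-like cells and 2514 and 3084 in CD8 naive T-like cells, while neutrophil-like cells held 126 and 138. Cell sorting, dissociation and free RNA could each shift a share, and their part was not tested.

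**Figure D1:**
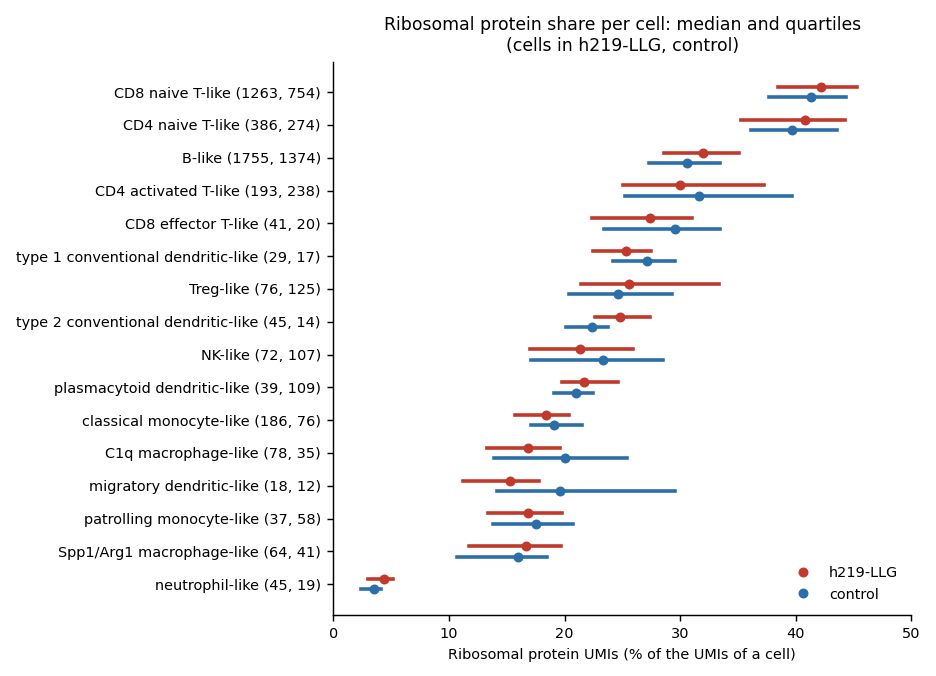
Ribosomal protein UMIs as a percentage of the UMIs of each cell (x axis), by marker gate (y axis, with the number of cells in the h219-LLG and control libraries). Points are medians over cells and bars are the quartiles, so that the naive T cells sit near 40% and the neutrophil-like cells near 4% in both libraries.

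The comparison between libraries asked whether LAIR1 blockade changed this share within a cell type. The ratio of the h219-LLG share to the control share lay above 1 in 6 of the 12 gates and below 1 in the other 6, between 0.915 in C1q macrophage-like cells and 1.09 in Spp1/Arg1 macrophage-like cells. In the gates with at least 100 cells in each library it was 1.05 in B-like, 1.02 in CD8 naive T-like, 1.02 in CD4 naive T-like and 0.966 (interval 0.962 to 0.970) in CD4 activated T-like cells. The ranges between the quartiles over cells overlapped between the libraries in all 12 gates.

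The sign in CD4 activated T-like cells differed with the number of UMIs per cell. Cells with 4000 to 8000 UMIs gave a ratio of 1.06 (interval 1.06 to 1.07), from 113 and 153 cells. Cells with 8000 UMIs or more gave 0.868 (0.862 to 0.873), from 32 and 65 cells. In B-like cells every depth range lay between 1.05 and 1.07. The median mitochondrial percentage was higher in the h219-LLG library in 11 of these 12 gates, for example 5.31% against 4.73% in B-like cells, and median depth was lower there in 11. The part of either was not tested.

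The members kept a nearly even balance of the subunits. Small-subunit genes gave 47.9% of the member UMIs in the h219-LLG library and 47.7% in the control library. Over the 12 gates this share lay between 45.4% in NK-like cells of the control library and 48.8% in CD4 naive T-like cells of both libraries. It was higher in the h219-LLG library in 10 of the 12 gates, equal at 3 digits in CD4 naive T-like cells and lower in CD8 effector T-like cells, where it was 46.1% (interval 45.8 to 46.4) against 46.5% (46.0 to 46.9). The widest gap was in Spp1/Arg1 macrophage-like cells, at 46.6% and 45.6%.

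Single members differed far more in level than in ratio. All values of level are CPM (UMIs of the gene per 1000000 UMIs of the cells concerned) from a 3′ assay that counts 1 end per transcript. The highest were Rps24, a small-subunit protein, at 9909 CPM in the h219-LLG library and 9908 CPM in the control library, Rps29 at 8929 and 8018 CPM, Rps27 at 7258 and 7163 CPM, Rplp1 at 7111 and 7421 CPM, and Rpl23 at 6834 and 6659 CPM. The 10 highest members gave 22.1% of the member UMIs in the h219-LLG library and 21.9% in the control library.

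The lowest members were mostly paralogs. Rpl7l1 had 38.9 CPM in the h219-LLG library and 36.1 CPM in the control library, and Rpl6l had 21.7 and 20.2 CPM. Rps27l had 187 and 158 CPM. Rpl15 and Rpl22l1 completed the lowest 5 among members with 200 or more UMIs, with 729 and 1004 CPM for Rpl15 and 1041 and 972 CPM for Rpl22l1. Of the 84 members, 81 reached 200 UMIs over both libraries and 80 reached 2000. The 3 others, lower still, were Rpl39l with 160 UMIs, Rpl3l with 128 and Rpl10l with 2.

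The stalk proteins and the members with a known second role were at like levels in both libraries. Rplp0, Rplp1 and Rplp2 form the stalk that recruits elongation factors. Rplp0 had 3199 CPM in the h219-LLG library and 3352 CPM in the control library, and Rplp2 had 5080 and 5048 CPM. Rpsa, also known as the laminin receptor, had 5091 and 5092 CPM, and Rps27a, which is made as a fusion with ubiquitin, had 5043 and 4895 CPM. The ratios of these 5 genes over all kept cells lay between 0.954 for Rplp0 and 1.03 for Rps27a.

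The X chromosome holds 4 of the 84 members. Rpl39 had 6112 CPM in the h219-LLG library and 5605 CPM in the control library. Rps4x had 4026 and 4043 CPM, Rpl10 had 2536 and 2514 CPM, and Rpl36a had 2124 and 2005 CPM.

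Taking each member as a share of all member UMIs removes the total and shows which genes make up the ribosomal protein mRNA of a cell type. Of the 80 members with 2000 or more UMIs, 53 had a highest gate less than 1.5 times their lowest gate in at least one library, and 7 had a range above 2-fold in both. The median of the smaller of a member's ranges was 1.37-fold. The 6 widest were Rps27l, Rpl7l1, Rpl31, Rpl12, Rpl10 and Rps27. The range of a sparse gene such as Rpl7l1, with 3261 UMIs, includes counting error.

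Rpl31 was highest in plasmacytoid dendritic-like cells. It encodes a large-subunit protein at the exit of the peptide tunnel and lies at chr1:39367842-39371911 (mm10, plus strand). It made up 1.69% of the member UMIs of these cells in the h219-LLG library and 1.87% in the control library. In the other 11 gates it made up between 0.351% and 0.586%. The gene Tbc1d8, which overlaps Rpl31 on the opposite strand, had 188 and 185 CPM in plasmacytoid dendritic-like cells, 42.2 and 31.0 CPM in patrolling monocyte-like cells, and less in the other 10 of the 12 gates. Migratory dendritic-like cells, a gate of 18 and 12 cells, had 207 and 152 CPM of Tbc1d8, with Rpl31 at 0.434% and 0.524% of the member UMIs. Type 1 conventional dendritic-like cells had 91.5 and 116 CPM of Tbc1d8, with Rpl31 at 0.461% and 0.511%. Whether Tbc1d8 transcripts enter the Rpl31 count was not tested.

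Among the 12 gates with at least 20 cells in each library, Rpl10 was also highest in plasmacytoid dendritic-like cells. This X-linked gene encodes a protein that joins the large subunit late in its assembly. It made up 1.76% of the member UMIs there in the h219-LLG library and 1.80% in the control library. In the monocyte and macrophage gates it lay between 1.21% and 1.63%. In B-like and T-like gates it lay between 0.599% and 0.754%, and NK-like cells stood between these ranges at 1.14% and 1.07%. The neutrophil-like gate, with few UMIs, had 0.80% and 1.04%. Plasma-like cells, a gate of 2 and 3 cells, held 133 and 174 Rpl10 UMIs among 8772 and 8851 member UMIs. In the control library that is a larger share than in plasmacytoid dendritic-like cells.

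Rpl12 went the other way. It encodes a protein at the base of the stalk and lies at chr2:32961559-32965345 (plus strand). It made up 2.07% of the member UMIs in CD4 naive T-like cells of the h219-LLG library and 2.06% in the control library. In patrolling monocyte-like cells it made up 0.706% and 0.691%, and in classical monocyte-like cells 0.731% and 0.732%. The range was 2.93-fold and 2.98-fold. In neutrophil-like cells the share was 0.496% and 0.372%.

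Rps27, whose product is a zinc finger protein of the small subunit, was, among the 12 larger gates, highest in B-like cells and lowest in C1q macrophage-like cells. Its shares were 2.76% and 2.81% in B-like cells and 1.29% and 1.14% in C1q macrophage-like cells. CD4 naive T-like cells had 2.38% and 2.37%.

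Neutrophil-like cells had a composition of their own, though they hold only 7251 and 2688 member UMIs and the control gate has fewer than 20 cells. Rps9, Rps27a and Rps27 led in these cells, and Rps9 was chosen after its values were seen. Rps9 made up 5.99% of the member UMIs in the h219-LLG library and 7.25% in the control library, against 1.20% to 2.25% in the 12 larger gates. Rps27a made up 4.22% and 4.13%, against 1.38% to 2.43%. Rps27 made up 3.89% and 3.87%.

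The composition of a gate was more like that of the same gate in the other library than that of any other gate in 11 of the 12 gates. For this the log2 shares of the 79 members with 10000 or more UMIs, a limit set after the data were seen, were centered on each library's mean over gates. The Pearson correlation across these 79 genes, which are not independent replicates, was 0.99 in CD8 naive T-like, 0.98 in B-like and 0.96 in plasmacytoid dendritic-like cells. CD8 effector T-like cells were the exception. Their correlation was 0.24, and the closest control gate was Treg-like with 0.59, with 20 control cells in the gate.

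**Figure D2:**
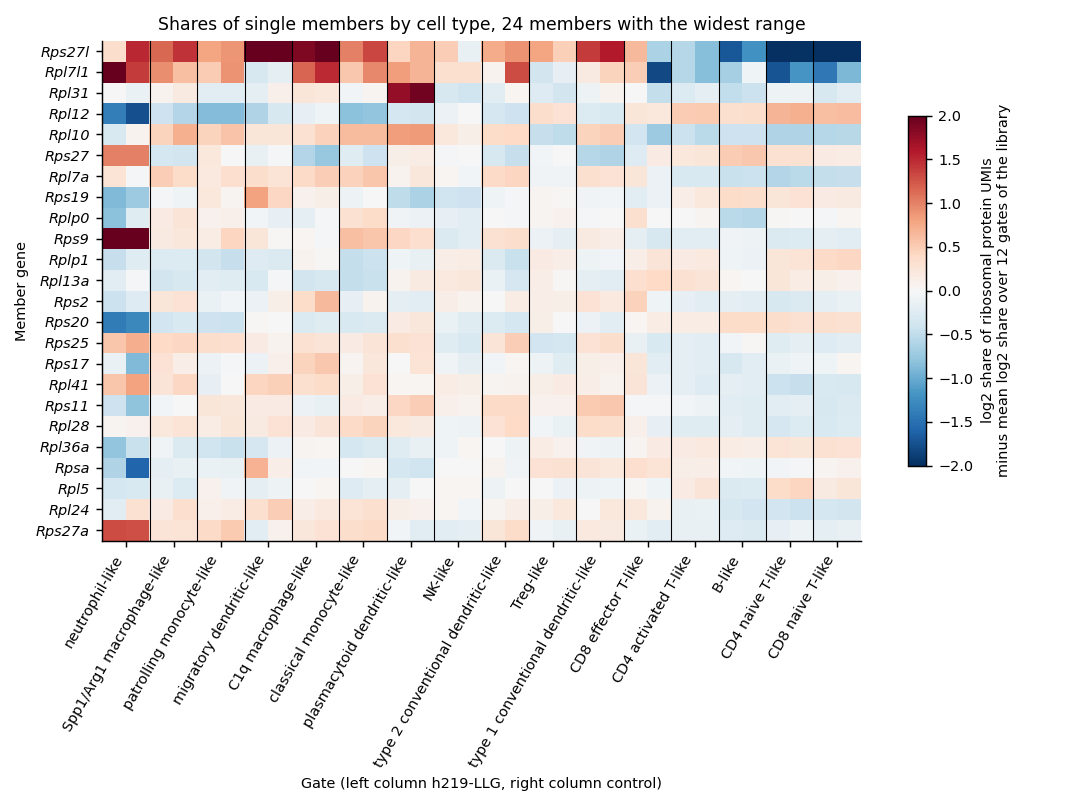
Share of each member among all ribosomal protein UMIs, as log2 difference from the mean log2 share over 12 gates of the same library (color scale, clipped at 2 either way), for the 24 members with the widest range (rows) in 16 gates (columns, h219-LLG left and control right). Adjacent columns of a gate carry alike colors, Rpl31 stands out in plasmacytoid dendritic-like cells and Rps9, Rps27a and Rps27 in neutrophil-like cells.

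The widest range over cell types belonged to a paralog. Rps27l is a close copy of Rps27 known as a target of p53, and lies at chr9:66946086-66949516 (plus strand). It had 70.0 CPM in CD8 naive T-like cells of the h219-LLG library and 66.7 CPM in the control library, and 540 and 497 CPM in C1q macrophage-like cells. As a share of Rps27l and Rps27 together it made up 0.765% (interval 0.703 to 0.832) and 0.754% (0.680 to 0.833) in CD8 naive T-like cells. In C1q macrophage-like cells it made up 19.6% (18.1 to 21.1) and 18.8% (16.3 to 21.5), and in classical monocyte-like cells 9.54% and 10.3%. Among the small gates it made up 33.4% and 18.8% of the pair in migratory dendritic-like cells, 14.8% and 13.4% in type 1 conventional dendritic-like cells, and 40% and 20.3% in the 7 and 8 melanoma-like cells. B-like cells were at the low end with 0.950% and 0.998%.

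Rpl22l1, the copy of Rpl22, was the paralog member closest to its parent in level, with 31.9% and 31.5% of the pair over all kept cells. It made up 35.2% of the pair in CD8 naive T-like cells of the h219-LLG library and 34.1% in the control library. In classical monocyte-like cells it made up 26.2% and 29.4%. In type 1 conventional dendritic-like cells it made up 19.0% and 18.5%.

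Rpl3l, known from striated muscle, was found here in myeloid cells. Patrolling monocyte-like cells held 11 and 26 of its UMIs, at 42.2 and 53.8 CPM, which was 3.49% (1.76 to 6.16) and 3.82% (2.51 to 5.54) of Rpl3l and Rpl3 together. Classical monocyte-like cells held 15 and 10 UMIs, at 8.47 and 9.96 CPM. Neutrophil-like cells held 3 UMIs in each library. B-like and CD8 naive T-like cells held 0 UMIs in both libraries beside 12936 to 24987 UMIs of Rpl3. Msrb1, the neighboring gene, had 1009 and 954 CPM in patrolling monocyte-like cells, 1010 and 1173 CPM in classical monocyte-like cells and 2635 and 3387 CPM in neutrophil-like cells. In B-like cells it had 22.6 and 17.8 CPM. Its part in the Rpl3l count was not tested.

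Rpl7l1, a copy of Rpl7, made up 5.06% and 4.77% of its pair in C1q macrophage-like cells and 1.0% and 1.03% in CD8 naive T-like cells. Rpl10l, a retrogene known from testis, gave 2 UMIs in the h219-LLG library and 0 in the control library.

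**Figure D3:**
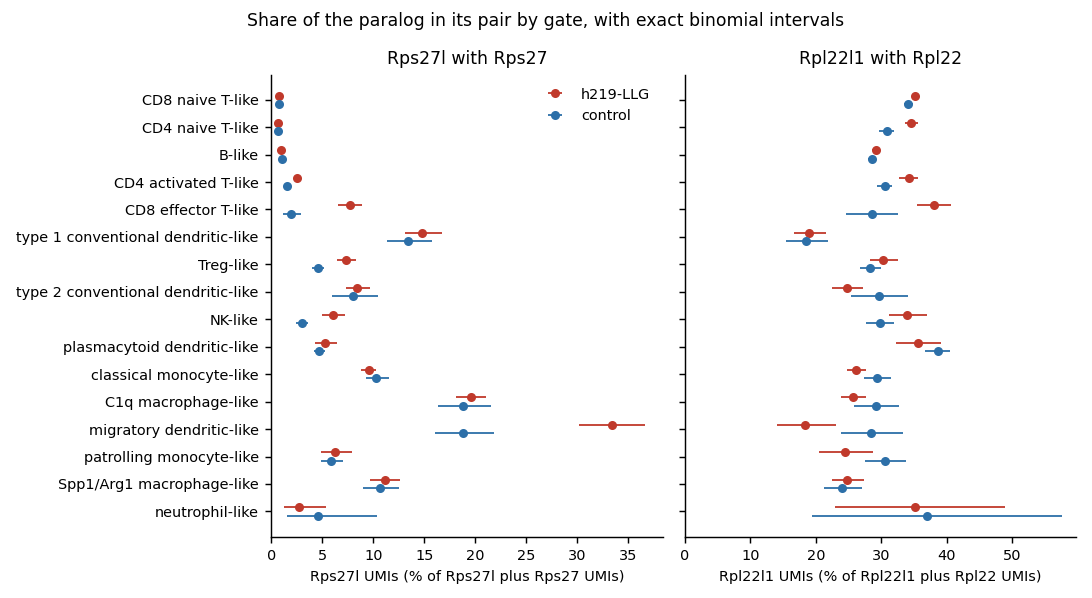
Rps27l UMIs as a percentage of Rps27l plus Rps27 UMIs (left) and Rpl22l1 UMIs as a percentage of Rpl22l1 plus Rpl22 UMIs (right) in 16 gates, with exact 95% binomial intervals. Rps27l is under 1% of its pair in naive T-like and B-like cells and near 19% in C1q macrophage-like cells, whereas Rpl22l1 lies between 18.3% and 38.6% in every gate shown.

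Between the libraries, few members differed. A member was called lower in a gate if its CPM ratio, h219-LLG over control, was at most 0.8, and higher if it was at least the inverse of 0.8, with 200 or more UMIs there. Over all kept cells 1 of 81 members was called higher, beside 17.6% of 10356 genes, and 2 were called lower, beside 10.2%. Over the 12 gates, 20 of 950 pairs of member and gate were called higher (2.11%) and 34 lower (3.58%). Of all 23396 pairs of gene and gate, 14.2% were called higher and 14.9% lower. With TMM scaling the same 950 pairs gave 19 higher and 60 lower. Members are among the most abundant genes, whose ratios carry less counting error. Among genes with 2000 or more UMIs in a gate, the background was 8.13% higher and 13% lower.

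Rpl35 was higher and Rpl15 and Rpl27 were lower in the h219-LLG library in all 12 gates. Rpl35 passed the threshold in 7 of them and so gave 7 of the 20 higher calls, and Rpl15 in 10 and Rpl27 in 9 gave 19 of the 34 lower calls. Of the 268 genes with at least 200 UMIs in every gate, 11 were higher in every gate (4.10%) and 15 were lower in every gate (5.60%), and 78 of the 268 are members. All 3 encode large-subunit proteins on different chromosomes. The gates come from the same pair of libraries, so that a like sign in all of them is not replication.

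Rpl35 (chr2:39001580-39005624, minus strand) had 2150 CPM over all kept cells in the h219-LLG library and 1635 CPM in the control library. In B-like cells it had 2168 and 1601 CPM, a ratio of 1.35 (interval 1.32 to 1.39). In CD8 naive T-like cells it had 2728 and 2167 CPM, a ratio of 1.26 (1.23 to 1.29). Its ratio was largest in Treg-like cells, at 1.47 (1.35 to 1.60), and smallest in C1q macrophage-like cells, at 1.1 (0.990 to 1.23). Arpc5l and Wdr38 overlap Rpl35 on the opposite strand, with 114 and 95.6 CPM for Arpc5l and 0.488 and 0.481 CPM for Wdr38.

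Rpl15 (chr14:18267823-18271391, minus strand) had 729 CPM over all kept cells in the h219-LLG library and 1004 CPM in the control library. In B-like cells it had 629 and 855 CPM, a ratio of 0.736 (0.707 to 0.766). In CD8 naive T-like cells it had 929 and 1327 CPM, a ratio of 0.70 (0.678 to 0.723). The lowest ratio was 0.549 (0.431 to 0.694) in patrolling monocyte-like cells, from 93 and 314 UMIs. Nkiras1, which overlaps it on the opposite strand, had 14.2 and 11.3 CPM.

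Rpl27 (chr11:101442298-101445529, plus strand) had 1234 CPM over all kept cells in the h219-LLG library and 1609 CPM in the control library. In B-like cells it had 1307 and 1665 CPM, a ratio of 0.785 (0.763 to 0.807). Its ratio lay between 0.653 in C1q macrophage-like cells and 0.949 in Spp1/Arg1 macrophage-like cells. Counted from 200 UMIs up, the highest 2 ratios in B-like and CD8 naive T-like cells belonged to Rpl35 and Rpl38, and the lowest 2 to Rpl15 and Rpl27. Rpl38 had 4404 and 3705 CPM in B-like cells, a ratio of 1.19 (1.17 to 1.21).

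**Figure D4:**
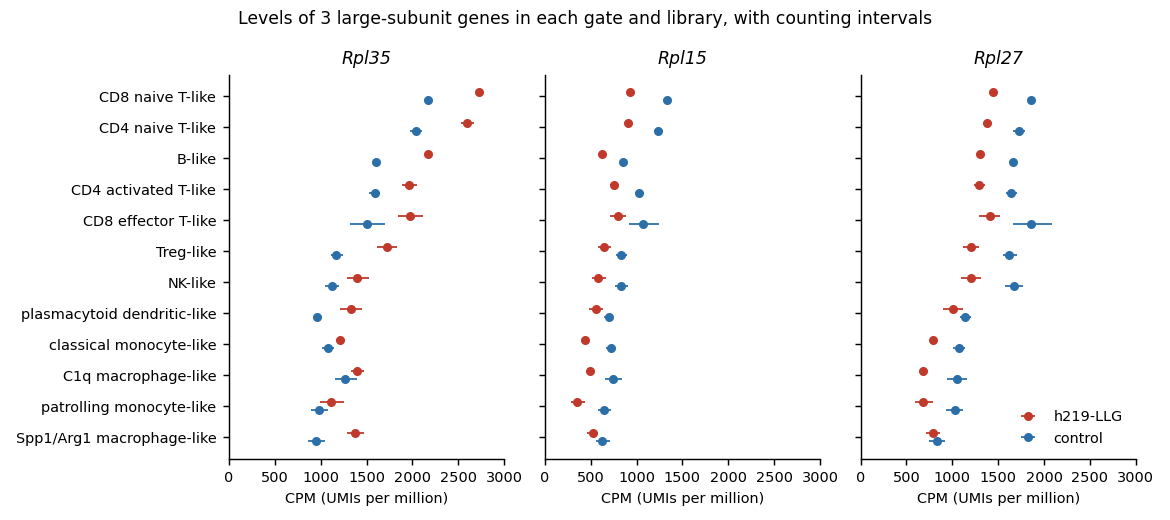
Levels of Rpl35, Rpl15 and Rpl27 in CPM (x axes) in 12 gates (y axis) of both libraries, with 95% Poisson intervals. Rpl35 lies to the right in the h219-LLG library in every gate, and Rpl15 and Rpl27 lie to the left.

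In B-like cells, Rpl35 was the 1 member called higher of 81 tested, where 12.8% of 5715 genes were called higher. Rpl15 and Rpl27 were the 2 called lower, where 13.3% of the genes were called lower. CD8 naive T-like cells gave the same 3 genes, with 15.9% of 5418 genes called higher and 14.3% lower. In CD4 naive T-like cells Rpl35 was called higher at 1.28 (1.22 to 1.33) and Rpl15 lower at 0.734 (0.690 to 0.781), beside 11.1% and 17.2% of 2250 genes. Rpl22l1 had the second highest ratio there, 1.24 (1.17 to 1.31), from 1360 and 1100 CPM.

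In CD4 activated T-like cells the highest ratio was that of Rps27l. It had 182 CPM in the h219-LLG library and 118 CPM in the control library, a ratio of 1.55 (1.28 to 1.88), and it was the 1 member of 79 called higher, beside 13.9% of 2002 genes. Rpl15 and Rpl27 were the 2 called lower, beside 14.5% of the genes. Rps27l was called higher in NK-like cells, at 282 and 145 CPM with a ratio of 1.94 (1.47 to 2.57), and in Treg-like cells, at 394 and 233 CPM with a ratio of 1.69 (1.41 to 2.03). The NK-like background was 15% of 739 genes called higher and 11.6% lower, where 2 of 79 members, Rpl15 and Rpl27, were called lower. The Treg-like background was 8.74% of 1202 genes higher and 18.3% lower, where 3 and 2 of 79 members were called. In B-like, CD8 naive T-like and CD4 naive T-like cells its ratios were 0.984, 1.05 and 0.924, with intervals that included 1.

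The macrophage gates held more calls and fewer cells. C1q macrophage-like cells had 8 of 79 members called lower and 0 higher, beside 19.5% of 997 genes called lower and 23.0% higher. Members lower there included Rps2 at 2281 and 3145 CPM, a ratio of 0.725 (0.675 to 0.780). Patrolling monocyte-like cells had 5 of 78 called lower, beside 16.2% of 560 genes, and classical monocyte-like cells 4 of 79, beside 12.6% of 2081 genes. In both, 0 members and 13.9% of the genes were called higher. Plasmacytoid dendritic-like cells had 1 of 79 called higher (Rpl35) and 0 lower, beside 11.1% and 18.5% of 1328 genes. Spp1/Arg1 macrophage-like cells had 6 of 79 called higher and 0 lower, beside 16% and 13.4% of 755 genes. CD8 effector T-like cells had 5 of 78 members called higher and 6 lower, beside 30.1% and 18.6% of 349 genes, with 20 control cells. Median log2 ratios of the members were -0.16 in C1q macrophage-like cells and 0.12 in Spp1/Arg1 macrophage-like cells, where the medians of all genes tested were -0.01 and 0.03.

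**Figure D5:**
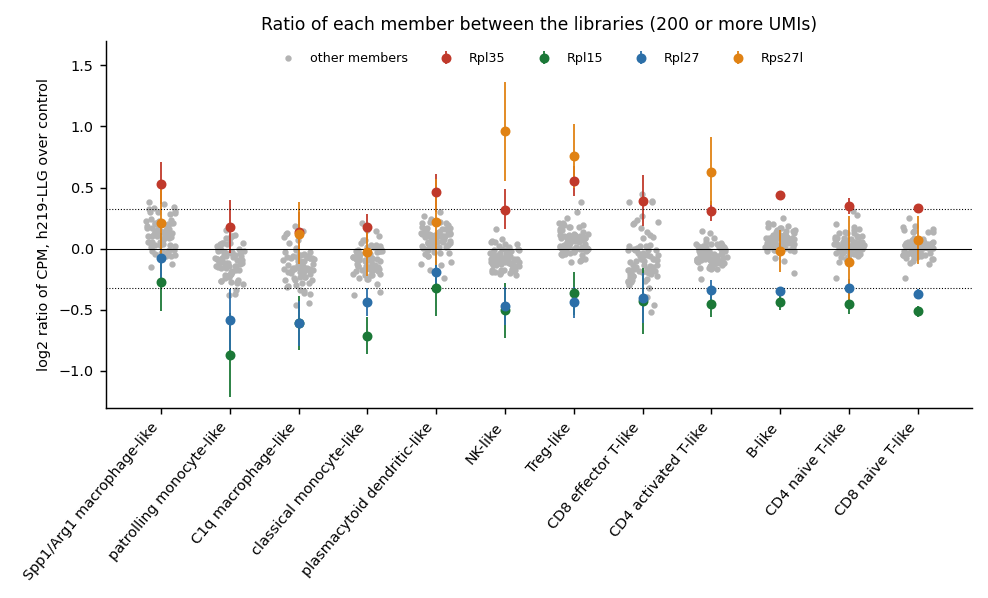
The log2 ratio of CPM, h219-LLG over control, of every member with 200 or more UMIs in each of 12 gates. Gray points are members other than the 4 named, colored points carry 95% counting intervals, and dotted lines mark a ratio of 0.8 and its inverse, with Rpl15 and Rpl27 below 0 and Rpl35 above 0 in every gate.

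Near-identical copies make a few counts uncertain, since reads that fit more than one gene are commonly left out of such counts. There were 16 pseudogene rows with 18289 UMIs in all, against 27850624 for the members (0.0657%). A further 3 rows were chosen after their values were seen. Rps27rt, whose transcript aligned to Rps27 at 100% identity over 341 bases, had 137 CPM in the h219-LLG library and 224 CPM in the control library and was lower in all 12 gates. Gm10076, 99.5% identical to Rpl41 over 383 bases, had 518 and 198 CPM, and Gm10073, 98.8% identical to Rplp1 over 496 bases, had 148 and 54.1 CPM. Both were higher in all 12 gates. Rpl41 itself had 4762 and 4756 CPM and Rplp1 had the 7111 and 7421 CPM given above. The parents thus differed little between the libraries while the copies differed, and the cause was not tested. Besides copies, 21 of the 84 members overlap another gene of the list, 2 of them on the same strand.

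Genes that work with the ribosome were read from fixed lists. Of 23 further TOP genes (elongation factors, Tpt1, Npm1 and others), 21 were in the gene list. In B-like cells 0 of them were called higher and 1 lower, beside 12.8% and 13.3% of all genes. The lowest ratios there were Vim, an intermediate filament, at 216 and 270 CPM, and Pabpc1, a poly(A) binding protein, at 617 and 701 CPM. The highest ratio was that of Eif3k, an initiation factor subunit, at 277 and 243 CPM. Their summed share was highest in naive T cells, at 4.03% and 4.15% in CD8 naive T-like cells, and lowest in neutrophil-like cells, at 0.898% and 0.993%.

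Ribosomal proteins of the mitochondrion are a separate nuclear gene family. In the B-like, naive T-like and CD4 activated T-like gates more of them were called higher than lower in the h219-LLG library. Of 77 such genes, 62 had 200 or more UMIs in CD8 naive T-like cells. There 24 were called higher and 3 lower, beside 15.9% and 14.3% of all genes. The median log2 ratio was 0.27 beside 0.02 for all genes. Mrpl42 had 38.0 and 20.4 CPM there, a ratio of 1.86 (1.5 to 2.33), and Mrps11 had 12.7 and 18.5 CPM, a ratio of 0.688 (0.517 to 0.914). In B-like cells 18 of 66 were called higher and 3 lower, beside 12.8% and 13.3% of all genes. In CD4 naive T-like cells 7 of 20 were called higher and 0 lower, beside 11.1% and 17.2%. CD4 activated T-like cells had 6 of 14 called higher and 0 lower, beside 13.9% and 14.5%, with a median log2 ratio of 0.27. Classical monocyte-like cells had 0 of 20 called higher and 2 lower, beside 13.9% and 12.6%, with a median log2 ratio of -0.05. Treg-like cells had 0 calls among 3. By cell type, their summed share was 0.329% and 0.279% in CD8 naive T-like cells and 0.475% and 0.478% in classical monocyte-like cells. It was 0.210% and 0.170% in neutrophil-like cells. Of the 13 mitochondrially encoded genes, 12 had ratios above 1 in CD8 naive T-like cells, with a median log2 ratio of 0.25.

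Initiation factors and ribosome assembly factors had calls in both directions in B-like cells. Of 25 initiation factors in B-like cells, 2 were called higher and 3 lower, where 12.8% and 13.3% of all genes were called. Eif5, which activates the GTPase of eIF2, had 239 and 363 CPM, a ratio of 0.660 (0.619 to 0.703), and Eif1b had 74.2 and 53.6 CPM, a ratio of 1.39 (1.21 to 1.59). Of 35 assembly factors, 30 were measured in B-like cells with 1 higher and 3 lower. In CD8 naive T-like cells 30 were measured with 2 higher and 4 lower, where 15.9% and 14.3% of all genes were called. Of 20 regulators, 16 were measured in B-like cells with 1 higher and 3 lower, at a median log2 ratio of -0.04. In CD8 naive T-like cells 14 were measured with 2 higher and 2 lower, at a median of -0.12. The shares of all genes called in these gates are those just given. Myc, which drives transcription of ribosome genes, had 138 and 104 CPM in B-like cells, a ratio of 1.32 (1.20 to 1.46). It had 70.1 and 45.9 CPM in CD8 naive T-like cells, a ratio of 1.53 (1.31 to 1.78). Ddit4, an inhibitor of mTOR, had 17.1 and 29.0 CPM in B-like cells, a ratio of 0.588 (0.463 to 0.745).

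Other genes of the p53 response were read beside Rps27l. In CD4 activated T-like cells, where Rps27l was higher, Cdkn1a had 73.8 CPM in the h219-LLG library and 161 CPM in the control library, a ratio of 0.460 (0.360 to 0.583). Bax had 106 and 91.8 CPM there, with an interval that included 1. Of the 6 measured genes of this list in these cells, 0 were called higher and 1 lower. In Treg-like cells 0 of 3 were called higher and 1 lower, which was again Cdkn1a, at 78.8 and 148 CPM. In NK-like cells the 1 measured gene, Btg2, was called higher at 558 and 434 CPM.

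Stress genes that respond to tissue dissociation differed as well. Of 12, 3 were called higher and 5 lower in B-like cells, beside 12.8% and 13.3% of all genes. Their median log2 ratio was -0.31, beside 0.01 for all genes. Hspa1a had 28.4 and 226 CPM there, and Fos had 570 and 297 CPM. The 4 hemoglobin genes were all called lower over all kept cells, beside 10.2% of all genes. There they summed to 0.102% of UMIs in the h219-LLG library and 0.174% in the control library. In B-like cells all 4 were called higher, with sums of 0.206% and 0.0905%, and likewise in Treg-like cells, with 0.736% and 0.00255%. Of all genes, 12.8% and 8.74% were called higher in these 2 gates. In CD8 naive T-like cells the sums were 0.00131% and 0.00259%. The part of dissociation and of free RNA in the member ratios was not tested.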

How the data were processed

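For each of 2 libraries the authors deposited raw counts of UMIs by gene and cell barcode, made from 10x 3′ v2 libraries with Cell Ranger 5.0.0 on mm10 (named in the submitters' processing notes). Only called cells are in these counts, and how multi-mapping reads and strand were treated is not stated in those sources. Coordinates are from GENCODE vM21 on the same build.

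Cells needed 200 detected genes, 500 UMIs and a mitochondrial share below 10%, and were assigned to 19 ordered marker gates. Doublets were handled by requiring that chosen genes of other lineages be absent, and free RNA was not removed. No hemoglobin gene was among those genes. Of the B cell genes, the dendritic, monocyte and macrophage gates excluded Ms4a1 but not Cd79a. UMIs were summed per gate and library. Shares carry exact Clopper-Pearson intervals, CPM exact Poisson intervals, and ratios an interval from the binomial split of counts, all at 95%. Cells are not replicates, so no p-value was computed. Calls needed 200 UMIs in the gate and a ratio of at most 0.8 or at least its inverse.

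Members named in the text are the 5 highest and 5 lowest by CPM, the 2 highest and 2 lowest ratios in gates of 100 or more cells, the 6 widest shares over gates, paralogs with parents, X-linked and stalk members, Rpsa and Rps27a. Of other lists, the extremes in ratio are named, apart from 1 gene not reported here. The members, gates and lists were chosen with earlier results of these data known. Rpl6l was added to the paralogs afterwards.

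Alternatives were limits on cells, doublet removal, other denominators, TMM (edgeR 4.0.16), DESeq2 1.42.0 size factors, gene minimums and folds. Scripts used Python 3.11.15, scipy 1.17.1 and R 4.3.3, and the intervals were tested on simulated data.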

Additional observations from a re-analysis of the deposited data

Results flagged for a closer look

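Of the 84 members, 2 were past the threshold in opposite directions in different cell types. The share of all genes that did so was not counted, so this count has no background. Taken singly, 30.1% of genes were called higher in CD8 effector T-like cells. In C1q macrophage-like and patrolling monocyte-like cells 19.5% and 16.2% were called lower. Rps2 was higher in the h219-LLG library in CD8 effector T-like cells, with a ratio of 1.30 (interval 1.18 to 1.44), and lower in C1q macrophage-like cells, with a ratio of 0.725 (0.675 to 0.780). Rpl22l1 had a ratio of 1.36 (1.13 to 1.65) in CD8 effector T-like cells and 0.793 (0.629 to 0.995) in patrolling monocyte-like cells. The difference between cell types was not tested, since each is 1 pair of libraries. The CD8 effector T-like values rest on 41 and 20 cells. The total share of the members was lower in the h219-LLG library in the CD8 effector T-like, C1q macrophage-like and patrolling monocyte-like gates. Rps2 was also called lower in classical monocyte-like cells.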

How the results depend on the processing

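The ratio of the total ribosomal protein share was recomputed for all kept cells and for B-like, CD4 activated, CD8 naive and CD4 naive T-like cells, and reported as 1.02, 1.05, 0.966, 1.02 and 1.02. In that order, it was 1.00, 1.08, 0.961, 1.02 and 1.02 with a mitochondrial limit of 5%, and 1.01, 1.05, 0.963, 1.01 and 1.01 with none. Without the barcodes of highest doublet score it was 1.02, 1.05, 0.959, 1.02 and 1.02. In cells of 2000 to 8000 UMIs it was 1.07, 1.05, 1.04, 1.03 and 1.03, so that CD4 activated T-like cells changed side. Without mitochondrial genes and Malat1 in the denominator it was 1.02, 1.06, 0.972, 1.02 and 1.03. With the other UMIs scaled by TMM it was 0.989, 1.02, 0.891, 0.974 and 1.00, and as a median over cells 1.05, 1.05, 0.950, 1.02 and 1.03. With 2 UMIs over the gating genes it was 1.05, 0.978, 1.02 and 1.03 in the 4 cell types. A minimum of 1000 UMIs moved none of these values beyond their counting interval, but it removed few cells and so could hardly move them. It left 7343 of 7433 and 5493 of 5607 kept cells, and nearly all cells of the 4 cell types. Over all 12 gates, 3 changed side of 1 in cells of 2000 to 8000 UMIs, 2 with TMM, 2 with the stricter gates, and 0 under the other settings named.

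Of the 20 higher and 34 lower calls of members, there were 33 higher with no minimum, 60 lower with TMM scaling and 52 lower with DESeq2 size factors, and 3 higher and 4 lower at a fold of 1.5. Adding pseudogene UMIs to their parents moved none of the 6 widest ranges, but could hardly have done so. Of these 6 genes only Rpl10 has a pseudogene row, with 538 and 367 UMIs in the h219-LLG and control libraries. Rps27rt was not added to Rps27. The cause of these shifts was not tested. No paired analysis was possible because each treatment is 1 library, and no replicate could be left out. Antibody, mouse, sort and library cannot be told apart.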

Other observations

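A few barcodes held nearly all UMIs of one rare member, a pattern noticed after the values were seen. Rpl39l, the copy of the X-linked Rpl39 known from testis, had 138 UMIs in the h219-LLG library and 22 in the control library. In the h219-LLG library 4 cells with 10 or more Rpl39l UMIs held 126 of the 138. The same 4 cells held 287 of the 293 UMIs of the pseudogene row Rpl7a-ps3, 113 of the 158 of Rpl13a-ps1, and both UMIs of Rpl10l. Their UMIs of the ubiquitous Rpl39 numbered only 11, and all 4 cells had UMIs of Ptprc, which encodes CD45. None of the 4 fell into a marker gate, and members took 32.4% of their UMIs. In the control library no cell had more than 4 Rpl39l UMIs.

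Short members leaned to the h219-LLG library. The 6 members whose principal transcript is under 400 bases, which are Rpl36, Rpl38, Rps21, Rps27, Rps28 and Rps29, had a median log2 ratio of 0.18 in B-like, 0.15 in CD8 naive T-like and 0.17 in CD4 naive T-like cells, and 0.07 in CD4 activated T-like cells. The 34 members of 600 to 1000 bases had 0.06, 0.01, 0.01 and -0.06. Across genes with 2000 or more UMIs, which are not independent, the correlation of log2 ratio with log2 length in B-like cells was -0.14 over 78 members and -0.38 over 699 other genes. For members and other genes it was -0.20 and -0.29 in CD8 naive, -0.21 and -0.39 in CD4 naive and -0.26 and -0.44 in CD4 activated T-like cells. Plasmacytoid dendritic-like cells had -0.17 and -0.40. In classical monocyte-like cells the order was the other way, at -0.21 and -0.15. The 5 other genes under 400 bases had a median of -0.11 in B-like and 0.00 in CD8 naive T-like cells. The 28 other genes of 400 to 600 bases had 0.26 and 0.22, where the 15 members of that length had 0.06 and 0.02. Other genes of 600 to 1000 bases had 0.14 and 0.17. The part of transcript length in the ratios was not tested. These gates and lengths were chosen after the data were seen.

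Among the 15 genes that were lower in every gate were 2 rows known to take up ribosomal RNA reads. Gm42418 had 17427 CPM in the h219-LLG library and 24538 CPM in the control library, and AY036118 had 726 and 898 CPM.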
